A study of Mus musculus with 4 samples.

Results

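The Serpina3 genes are a run of closely related protease inhibitor genes on mouse chromosome 12. The 8 genes described here, Serpina3c, Serpina3f, Serpina3g, Serpina3i, Serpina3j, Serpina3k, Serpina3m and Serpina3n, were selected on their age differences on these same arrays, among which those of Serpina3n, Serpina3j and Serpina3c stood out, so the differences are given as descriptions without a test. Of these 8 genes, 7 were matched to a probe by accession, with 9 probes between them, out of 45604 genes or unnamed identifiers and 56593 probes tested. No probe carried an accession that the RefSeq gene table lists for Serpina3g, and no level is given for it. Serpina3f and Serpina3i had 2 probes each and the other 5 measured genes had 1.

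Gene expression was measured in septal nasal mucosa, which holds the olfactory epithelium and the lamina propria beneath it, of young adult mice (8 weeks old) and aged mice (16 months old). All mice were C57BL/6J, and the methods of the study describe them as male. Each age was represented by 2 one-color Agilent arrays, and the RNA on each array was pooled from 5 mice. The spread between the 2 arrays of an age is therefore that between pools on different slides, not between single mice. The pools of an age may share mice, since the methods count fewer animals for gene analyses than separate pools would take. The labels also carry a note on silica and lung that matches neither the sample titles nor the study, and it was not used. In young adult mice 68.1 and 76.8% of spots exceeded background clearly, and in aged mice 63.1 and 72.7%. No spot was saturated. The log2 values correlated at 0.988 between the arrays of either age and at 0.983 to 0.99 between arrays of different ages. One slide was shared, by the arrays numbered 1 of both ages, and 2 further slides held the remaining arrays. In pooled tissue RNA, fewer cells of a type and less RNA per cell cannot be told apart.

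Serpins inhibit proteases by offering a reactive centre loop as bait. The protease cleaves the loop, and the inhibitor then folds around it and traps it in a covalent complex, so each serpin molecule works once. Humans carry a single SERPINA3 gene, which encodes alpha-1-antichymotrypsin, an acute phase protein of plasma, whereas the mouse carries a cluster of related copies that differ mostly in the reactive loop and hence in their targets. Members of the cluster are known to respond to cytokines of the interleukin-6 family and to glucocorticoids, and Serpina3n is widely used as a marker of reactive astrocytes.

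The gene table lists 14 Serpina3 genes and pseudogenes in one order along the chromosome, from Serpina3a to Serpina3n, with Serpina3b and Serpina3c near one end and Serpina3j, Serpina3k, Serpina3m and Serpina3n towards the other. The windows of 250 bases before the start sites of Serpina3c and Serpina3n, the first and the last of the listed genes in that order, matched over nearly their whole length. They are shown because both genes were higher in aged mice, together with the window of Serpina3b, which was near its young adult level. Capitals mark bases that were not matched in the alignment with the named partner, and all sequences are from RefSeq on GRCm38.p6, written 5′ to 3′ on the strand of the gene. The Serpina3n window lies at chr12:104406458-104406707 on the plus strand and is marked against Serpina3c. The Serpina3c window lies at chr12:104153873-104154122 on the minus strand and is marked against Serpina3n. The Serpina3b window lies at chr12:104127746-104127995 on the plus strand and is marked against Serpina3n.
Serpina3n: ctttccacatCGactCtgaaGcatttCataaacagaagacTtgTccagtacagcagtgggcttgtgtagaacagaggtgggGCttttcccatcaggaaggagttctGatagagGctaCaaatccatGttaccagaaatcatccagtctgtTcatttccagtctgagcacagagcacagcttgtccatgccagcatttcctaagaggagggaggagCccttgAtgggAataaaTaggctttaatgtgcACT
Serpina3c: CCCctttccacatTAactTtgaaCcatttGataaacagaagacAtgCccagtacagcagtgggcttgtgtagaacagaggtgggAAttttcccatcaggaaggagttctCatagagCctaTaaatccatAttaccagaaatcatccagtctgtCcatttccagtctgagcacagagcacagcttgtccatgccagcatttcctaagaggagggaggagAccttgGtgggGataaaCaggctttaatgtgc
Serpina3b: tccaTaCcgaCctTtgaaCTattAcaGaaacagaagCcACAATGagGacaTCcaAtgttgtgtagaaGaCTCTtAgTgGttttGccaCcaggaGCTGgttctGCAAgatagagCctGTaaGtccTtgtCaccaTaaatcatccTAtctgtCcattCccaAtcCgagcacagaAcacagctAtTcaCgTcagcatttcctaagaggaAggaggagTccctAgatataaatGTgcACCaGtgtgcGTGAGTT

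Of the 250 bases, 229 were identical between Serpina3n and Serpina3c, and 179 between Serpina3n and Serpina3b. The window of Serpina3f shared 177 identical bases with that of Serpina3i in their best local alignment. The window of Serpina3j stood apart, with 14 identical bases in its best stretch with Serpina3n, and that of Serpina3a shared 9 to 21 with any other. Serpina3n and Serpina3j, the 2 listed genes with the largest age differences, thus had unlike sequence before their start sites.

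**Figure D1:**
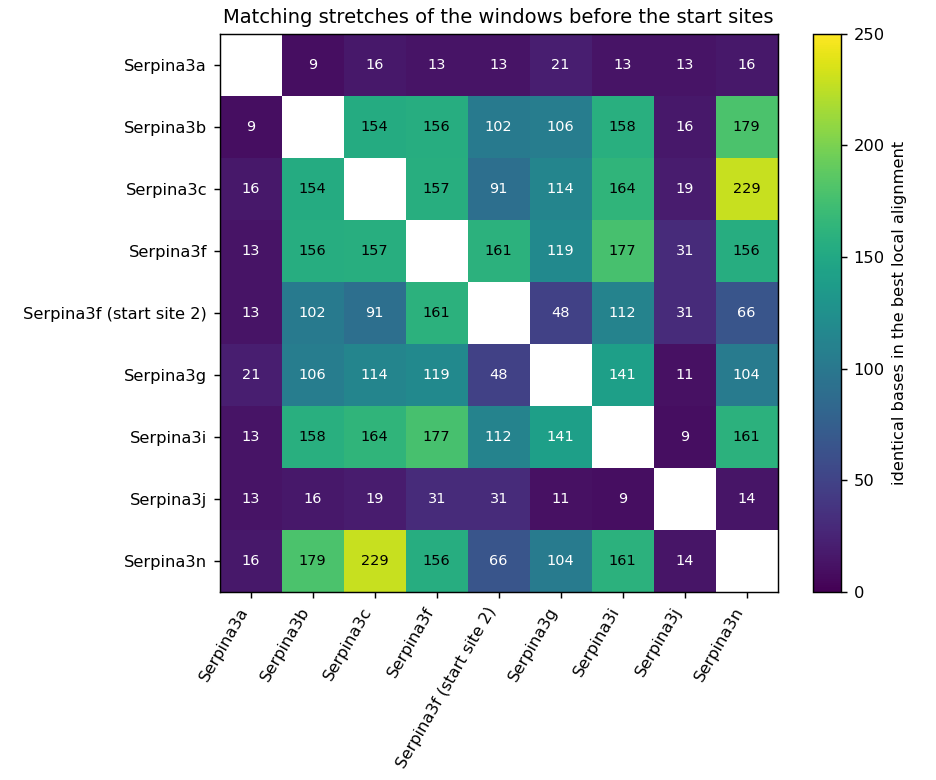
Number of identical bases in the best local alignment of each pair of windows of 250 bases before the start sites of Serpina3 genes, in the order of the genes along the chromosome; Serpina3f has a second annotated start site. Serpina3c and Serpina3n share 229 bases, and the windows of Serpina3a and Serpina3j match no other window over a long stretch.

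Windows were matched for 6 of the 8 listed genes, and not for Serpina3k and Serpina3m. Short motifs of factors known to act on acute phase genes were searched for on both strands of these windows, and their share among all 32851 windows of the table is given beside them. The glucocorticoid receptor motif ACANNNTGT, held by 5.84% of all windows, occurred in Serpina3c, Serpina3f, Serpina3i and Serpina3n, each time as ACAGCTTGT. It began 76 bases before the start of Serpina3n and 73 bases before that of Serpina3c, inside a stretch in which the windows of these genes are identical. The window of Serpina3b differs there and held no match. That of Serpina3j held no match to this or any other motif searched for. The STAT motif TTCNNNGAA (7.02% of windows) occurred in Serpina3f, Serpina3g and Serpina3i. The NF-kB motif, GGG and TTTCC with NN between them (1.41%), occurred in Serpina3g, Serpina3i and Serpina3n, beginning 171 bases before the start of Serpina3n, and was not matched in Serpina3c, whose window differs there. The C/EBP motif TTGCNNAA (9.56%) occurred in Serpina3b and Serpina3f, and the IRF motif, a GAAA repeated after NN (2.98%), in none of them. The matches of the different motifs did not share a position, and a match describes letters only.

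Serpina3n, which encodes a secreted inhibitor of granzyme B and leukocyte elastase, had the largest age difference of the listed genes. Its normalized intensity was 1733 and 1706 in young adult mice and 9946 and 9608 in aged mice. Both aged arrays were far above both young adult arrays, and the arrays of one age lay close together. The means were 1720 ± 19.1 (SD, n = 2) and 9777 ± 239 (SD, n = 2), a log2 difference of 2.51 with a standard error (SE) of 0.08, or 5.68-fold. The difference was 2.52 between the arrays that shared a slide and 2.49 between the other arrays. The probe was well above background on all 4 arrays, with unnormalized signals of 1946 and 1663 against 9680 and 9516 over local backgrounds of 33 to 67. In the order of all 45604 genes by log2 rise, Serpina3n stood at rank 7.

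Serpina3j, a member of the cluster whose target protease is little known, showed nearly the same pattern. Its normalized intensity was 120.6 and 133 in young adult mice and 604.1 and 609.2 in aged mice. Again the aged arrays were both above the young adult arrays, with little spread within an age. The means were 126.8 ± 8.75 and 606.7 ± 3.57 (SD, n = 2 each), a log2 difference of 2.26 (SE 0.09) or 4.79-fold, and the rank by rise was 19. Its probe was also well above background on all 4 arrays, and the difference was 2.32 on the shared slide and 2.20 between the other arrays.

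Serpina3c, which encodes a kallikrein-binding protein, was measured in aged mice only. Both young adult arrays gave 33.22, not well above background, and the aged arrays gave 100.8 and 128.4. The groups did not overlap. Because the young adult values are limits, the gene was at least 3.24-fold higher in aged mice. That bound sets the aged mean against the higher of the probe's own value and the lowest signal among well-measured probes on each young adult array, averaged on the log2 scale, and holds for the background correction used. The fitted log2 difference was 1.78 (SE 0.15), and a background offset of 50 lowered it to 0.98, or 1.97-fold. Its mean over the 4 arrays, 73.9, was under the limit of 100 that the study set for differentially expressed genes. The study nevertheless listed Serpina3c among the genes that were upregulated with age.

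Serpina3k, a liver-rich gene whose product binds tissue kallikrein, was close to background. Its normalized intensity was 30.33 and 15.52 in young adult mice and 66.05 and 71.41 in aged mice, and aged array 2 was the only array on which it was well above background. Both aged arrays were above the young adult ones, which themselves differed by 0.97 on the log2 scale. The same bound came to at least 2.38-fold with this background correction, but its aged mean rests on 1 measured array. The fitted log2 difference was 1.66 (SE 0.38), and an offset of 50 lowered it to 0.71, or 1.63-fold.

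The 2 probes of Serpina3i disagreed. One gave 48.02 and 52.05 in young adult mice and 140.2 and 155.1 in aged mice, a log2 difference of 1.56 (SE 0.10). It was well above background on all arrays but young adult array 1, and its ages did not overlap. The other gave 38.12 and 33.22 against 34.08 and 56.53, with overlapping ages and a signal well above background on aged array 2 alone. Its young adult values lay near background, so no least difference is given for it. The fitted log2 difference of this probe was 0.30 (SE 0.30), again with 1 measured aged array. Averaged over both probes, the gene differed by 0.93 (SE 0.18).

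The probes of Serpina3f disagreed as well. The first gave 59.41 and 53.07 in young adult mice and 55.42 and 62.91 in aged mice, a log2 difference of 0.07 (SE 0.12). It was well above background on young adult array 2 and aged array 2 only. The second gave 26.87 and 38.12 against 76.91 and 52.15 and never stood well above background, so no fold is given for it. The ages overlapped on the first probe and not on the second, and the gene average, which draws on both, differed by 0.53 (SE 0.12). Each probe carried the accession of 1 gene, and how far probes of these similar genes bind each other's RNA was not tested.

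Serpina3m, another secreted member of the cluster, behaved differently from its neighbours. Its normalized intensity was 1131 and 309.4 in young adult mice and 1087 and 1168 in aged mice. Young adult array 2 was low, and the other 3 arrays were alike, so the ages overlapped. The log2 difference between ages was 0.93 with an SE of 0.72, but it was -0.06 on the shared slide, 1.92 between the other arrays, and -0.01 without young adult array 2. The young adult arrays differed by 3.66-fold, and only 35 of the 25513 genes with a mean of at least 100 (0.137%) had a gap between them at least as large. The gap was already present in the unnormalized signals, 1292 and 323, over backgrounds of 67.5 and 33.5.

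**Figure D2:**
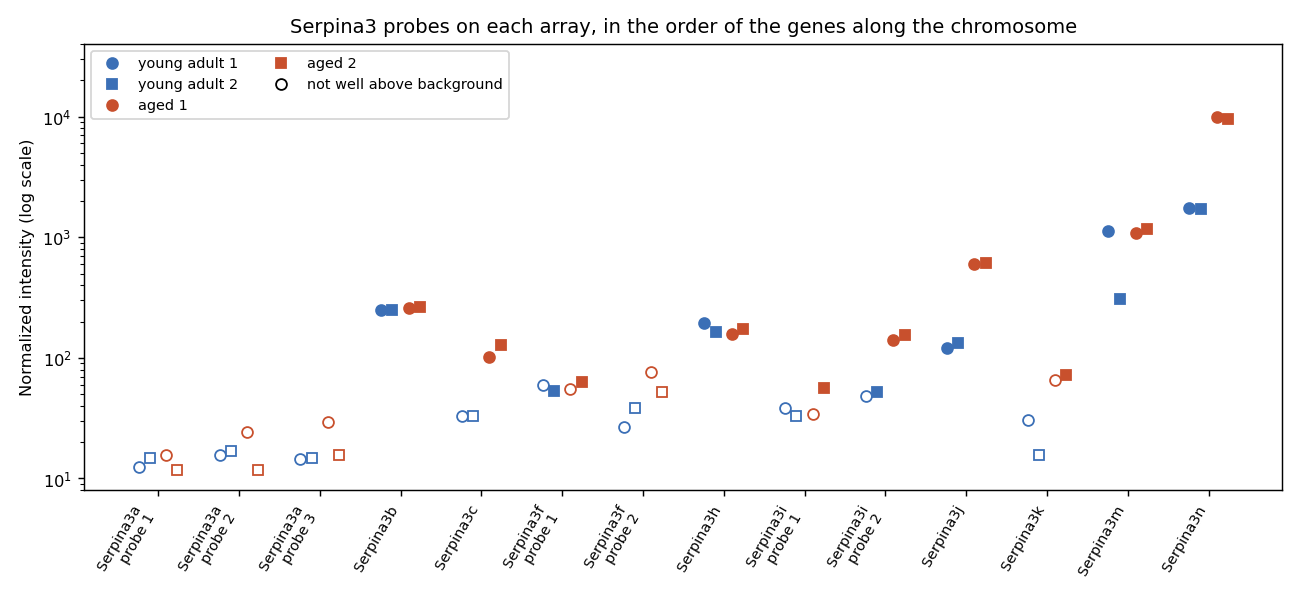
Normalized intensity (log axis) of each Serpina3 probe on the 2 young adult and 2 aged arrays, in the order of the genes along the chromosome; open symbols were not well above background, and probes of one gene are numbered by their aged mean. Serpina3n, Serpina3j and Serpina3c separate by age with little spread, and for Serpina3m only young adult array 2 is low.

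Among the 7 measured genes the mean was higher in aged mice in all 7, and both aged arrays were above both young adult arrays in 6, Serpina3m being the exception. Over all genes, 24.2% had both aged arrays higher. With limma, Serpina3n, Serpina3j and Serpina3c passed the study's limits of P under 0.05 and a false discovery rate (FDR) under 0.25, which 1.65% of all genes passed with a higher level in aged mice. Because the genes were listed for this difference, nothing is read from these counts. No gene passed when any 1 of the 4 arrays was left out, and this holds for every list described below. Serpina3n and Serpina3j also passed the study's limits on mean level and fold change, as 0.814% of all genes did in that direction. The median log2 difference of the 7 genes was 1.66, the value of the dim Serpina3k, against 0.009 over all genes. Nothing is read from this median either, for the same reason. Of their 9 probes, 3 were well above background on all 4 arrays and 4 on neither young adult array.

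**Figure D3:**
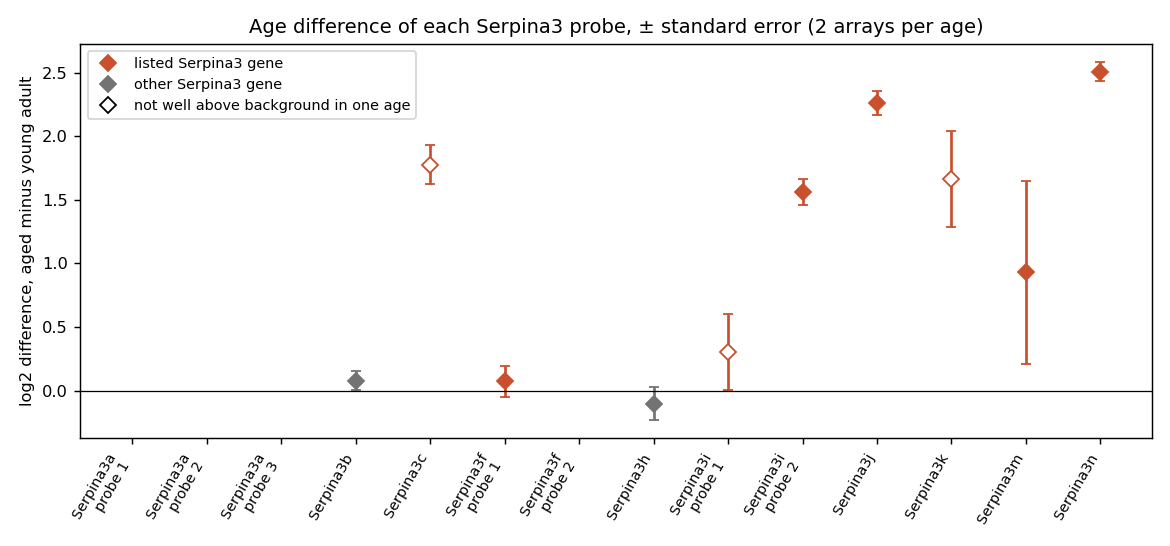
Log2 difference, aged minus young adult, of each Serpina3 probe with its standard error from the limma fit (2 arrays per age); open symbols mark probes with no clear signal in 1 age, and probes with none in either age are not drawn. Serpina3b, Serpina3h and one probe of Serpina3f lie near 0, and Serpina3m has the widest error.

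An age difference was not seen at every measured gene of the cluster. Serpina3b, the neighbour of Serpina3c, gave 248.2 and 249.2 in young adult mice and 261.2 and 264.2 in aged mice, a log2 difference of 0.08 (SE 0.07). Serpina3h, annotated as a transcribed pseudogene, gave 193.5 and 163.3 against 158.2 and 172.9, a difference of -0.10 (SE 0.13). Both were well above background on all 4 arrays and neither passed the limits (limma FDR 0.698 and 0.768). The 3 probes of Serpina3a stayed near background throughout.

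The genes whose profile over the 4 arrays lay nearest to that of Serpina3n were found by the root mean square difference of centred log2 values among genes with a mean of at least 100. Serpina3j came after 2 other genes in that order, with a difference of 0.138. Krtap11-1, a keratin-associated protein gene of hair, came first at 0.097, with normalized intensities of 258.3 and 255.8 in young adult mice and 1263 and 1334 in aged mice. Moxd2, a relative of dopamine beta-hydroxylase, came next at 0.107, with 189.6 and 168.3 against 1044 and 863. The remaining 2 were unnamed transcripts. With 4 arrays, likeness of profile mostly means a similar age difference and a small spread.

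Other serpins were counted against the shares of all genes that passed the limits, 1.65% upward and 2.33% downward. Of 17 measured clade A genes besides the listed members, with Serpina3a, Serpina3b and Serpina3h among them, none rose and 1 (5.88%) fell. Serpina9, a B cell serpin, fell from 974.7 and 883.4 to 570.8 and 548.8, a log2 difference of -0.73 (SE 0.09, limma FDR 0.201). The alpha-1-antitrypsin genes of the same chromosome did not pass, with Serpina1a at -0.52 (SE 0.18) and Serpina1b at -0.15 (SE 0.16). The median of the list was -0.213. Of 38 serpins of other clades, 1 (2.63%) rose and 4 (10.5%) fell. Serpinb7 rose from 237 and 242 to 350.8 and 390 (log2 0.63, SE 0.09, limma FDR 0.213). Those that fell were Serpinh1, the collagen chaperone, from 3900 and 4242 to 2398 and 2489 (-0.74), Serpinb10 (-0.78), Serpinb5 (-0.64) and Serpinf1, which encodes pigment epithelium-derived factor (-0.55). Serpinb1a, an inhibitor of neutrophil elastase, did not pass, at 0.08 (limma FDR 0.745).

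Proteases, some of which serpins inhibit, were counted the same way. Of 35 measured genes for neutrophil, mast cell and cytotoxic proteases, kallikreins and cathepsins, 1 (2.86%) rose and 2 (5.71%) fell, against 1.65% and 2.33% of all genes, with a list median of -0.167. Ctsk, the collagen-degrading cathepsin K of osteoclasts, fell from 13260 and 12950 to 5023 and 5177 (log2 -1.36, SE 0.08, limma FDR 0.168), and Mmp9 fell by 1.16 on the log2 scale (limma FDR 0.211). Gzmm, a granzyme of cytotoxic lymphocytes, rose by 0.48 (limma FDR 0.219). The classical targets did not pass: Ctsg, the cathepsin G that antichymotrypsin inhibits, gave 39.35 and 91.65 against 50.81 and 75.03, Elane differed by -0.17 and Gzmb by -0.17.

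Of 28 acute phase genes, the class to which SERPINA3 belongs in humans, 3 (10.7%) rose, 3 (10.7%) fell and 22 did not pass, against 1.65% and 2.33% of all genes. The list median was -0.007. Lcn2, an iron-sequestering acute phase lipocalin, rose from 2151 and 2195 to 4688 and 5068 (log2 1.17, SE 0.09, limma FDR 0.178). The metallothionein genes Mt1 and Mt2 rose by 0.83 and 0.67 (limma FDR 0.178 and 0.189). Pglyrp1, which encodes a neutrophil peptidoglycan-binding protein, fell from 18840 and 17520 to 8117 and 7304 (-1.24), and Cp (-0.53) and A2m (-0.41) fell less.

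In the interleukin-6 and STAT3 list, 2 of 24 genes (8.33%) rose, against 1.65% of all genes, and none fell. Il6 itself rose from 32.93 and 39.35 to 112.9 and 116.1 (log2 1.67, SE 0.12, limma FDR 0.178), a low level that exceeded background clearly on both aged arrays and 1 young adult array. Cebpd, a transcription factor gene of the acute phase response, rose from 7868 and 8879 to 12850 and 13820 (0.67, SE 0.11, limma FDR 0.221). Socs3, the feedback inhibitor of the pathway, gave 3888 and 3513 against 5124 and 5247 and lay just outside the limit (limma FDR 0.251), and Stat3 differed by 0.22 (limma FDR 0.434). Receptor genes of the pathway did not pass.

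Of 15 glucocorticoid response genes, 4 (26.7%) rose, against 1.65% of all genes, none fell and 11 did not pass, with a list median of 0.266. Fkbp5, a chaperone of the glucocorticoid receptor, rose from 895.5 and 846.5 to 1532 and 1508 (log2 0.80, SE 0.08, limma FDR 0.185). Pdk4 rose by 0.99, Angptl4 by 0.85 and Hif3a by 0.58. The receptor gene, Nr3c1, did not pass (-0.09, limma FDR 0.778). Of 29 interferon response genes, 9 (31%) fell, against 2.33% of all genes, none rose and 20 did not pass, with a list median of -0.342. Irf7, a master regulator of the response, fell from 1171 and 1191 to 658.3 and 687 (-0.81, SE 0.08, limma FDR 0.183), Oas1a fell by 0.79, Gbp3 by 0.73 and Ifi44 by 0.70. In the interleukin-1, TNF and NF-kB list, 1 of 22 genes (4.55%) changed, the chemokine gene Cxcl5, which fell by 0.83 on the log2 scale (limma FDR 0.191). No test compared these lists with the Serpina3 genes.

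**Figure D4:**
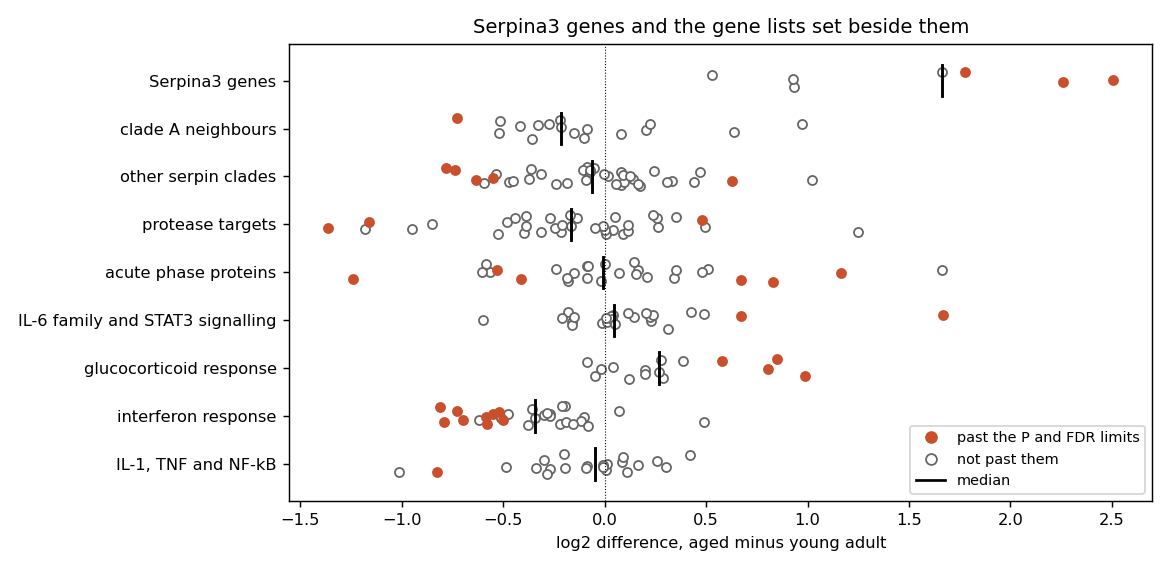
Log2 difference, aged minus young adult, of each measured Serpina3 gene and of each gene in the 8 lists set beside them; filled points passed the P and FDR limits and bars are medians. The glucocorticoid list has risen genes and no fallen ones, the interferon list fallen genes and no risen ones, and the Serpina3 genes were listed for their difference.

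Markers of cell types that could hold Serpina3 RNA were set beside these values. Over all genes, 1.65% passed the limits upward and 2.33% downward. A summed intensity mainly follows the most intense genes of its list. Of the 6 astrocyte markers, none passed the limits in either direction, their summed intensity was 17880 to 18300 in young adult mice and 20080 to 20610 in aged mice, and Gfap, the classical astrocyte marker, gave 76.59 and 79.52 against 72.34 and 93.2. Of 8 hepatocyte markers, Ahsg and Cyp2e1 rose and none fell, and the sum was 4735 to 4950 against 8333 to 8520. Cyp2e1 alone gave 3254 and 3410 against 6474 and 6601. Alb and Apoa1, the defining liver genes, were near background in both ages, at 21.62 to 31.65 and 10.83 to 35.96. Apoa2 and Tat were well above background on all 4 arrays and did not pass, with log2 differences of -0.004 and -0.41. By mean, 4 of the 8 hepatocyte markers were higher in aged mice and 4 lower. Of 9 pituitary markers, Prl and Gh rose and none fell, and the sum was 1237 to 1283 against 9348 to 9854. By mean, 7 of the 9 were higher in aged mice and 2 lower. Cga gave 37.11 and 22.45 against 107.4 and 78.66 and did not pass (limma FDR 0.26). Pomc and Lhb were well above background on all 4 arrays and did not pass, and Pou1f1 and Fshb were near background throughout. Prl alone gave 282.5 and 237.6 against 8155 and 7969. Of 6 measured neutrophil markers, 4 fell and none rose, and the sum was 11580 to 11970 against 5751 to 5812. Of 7 fibroblast markers, 4 fell and none rose, and the sum was 225900 to 250800 against 118300 to 126400. Of 9 measured gland and secretory markers, Bpifb9b and Muc5b rose, Muc5ac and Ltf fell, and the sum was 785200 to 793900 against 707900 to 708100. Of 6 endothelial markers 3 fell, with sums of 19310 to 19730 against 11500 to 11770. Of 7 ensheathing and Schwann cell markers 3 fell (36120 to 36910 against 25380 to 26890), of 7 macrophage markers 2 fell (8428 to 9218 against 6967 to 7210), and of 7 basal and progenitor markers 2 fell (30750 to 31290 against 24770 to 25290). Of 6 immature olfactory neuron markers 1 fell (49630 to 50880 against 40000 to 41050), and none of these lists held a gene that rose. No marker of sustentacular, ciliated, T and natural killer, or B and plasma cells passed the limits. The labelled tissue was borne out by its own markers: the sum over 10 mature olfactory neuron markers was 573700 to 582500 against 635900 to 643600, 1 of them rising. The part of these cell types in the Serpina3 differences was not tested.

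The size of the difference varied with the processing, least for Serpina3n among the genes below. Over 17 alternatives the log2 difference of Serpina3n ran from 2.47 to 2.59 and that of Serpina3j from 1.89 to 2.52. For Serpina3c it ran from 0.98 to 3.25, and for Serpina3k, over 16, from 0.71 to 3.19. The lowest values of these 4 genes came from a background offset of 50, and the highest from the scanner software's processed signal.

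**Figure D5:**
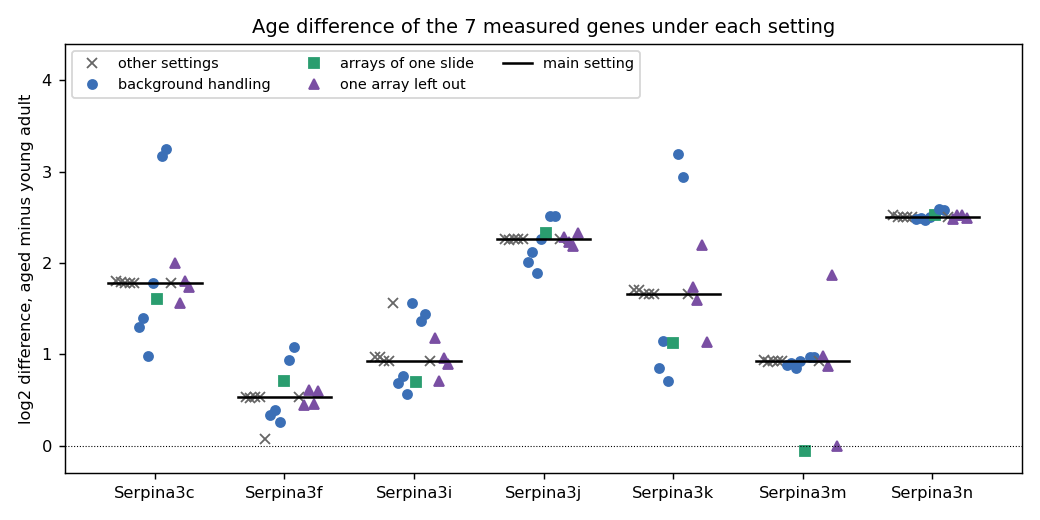
Log2 difference, aged minus young adult, of the 7 measured Serpina3 genes under each alternative way of processing (points) and as reported (bars). Serpina3n stays between 2.47 and 2.59, Serpina3c and Serpina3k spread widely with the background handling, and Serpina3m falls to about 0 without young adult array 2 or on the shared slide.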

How the data were processed

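The authors labelled the RNA with Cy3, hybridized it to Agilent SurePrint arrays and extracted spots with Feature Extraction 11.0.1.1; their analysis used R 3.2.1. They deposited for each of the 4 arrays the intensity of 62976 spots, its local background and quality flags, without normalization between arrays. Those intensities were re-analysed in limma 3.58.1 (R 4.3.3): normexp background correction with offset 0 (the study names no method or offset), removal of control and flagged spots, averaging of spots, quantile normalization of log2 values, and averaging of the probes of a gene. By accession, 32994 of 56605 probes (58.3%) were named from a RefSeq gene table of GRCm38.p6, whose coordinates were not used for probes. Ages were compared with lmFit and eBayes without covariates. A gene was called at P under 0.05 and a Benjamini-Hochberg FDR under 0.25 over 45604 genes, and the study further asked for a mean of at least 100 and a fold change of at least 1.5. With 2 arrays per age, P-values rest on the spread between arrays, in which pools and slides are joined. eBayes also draws the spread of each gene towards that of all genes. Precision is limited by how few arrays there are, and by background where a probe is dim.

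The members and lists were chosen with earlier results of these data known. All listed members and their probes are named, with the called genes of each list that is not a marker list (at most 4 in each direction), a few central members that were not called, and the 5 profiles nearest to Serpina3n. Start-site windows were compared by local alignment (match 1, mismatch -1, gap opening -3, gap extension -1). A global alignment was computed first, and the local one took its place after the global values had been seen, because some start sites are shifted against each other. Tested on simulated arrays with 200 of 45604 genes changed 2-fold, the fit called 136 of them (68%) and 66 unchanged genes, and 0 genes when none was changed. Alternatives covered the background, normalization, probe choice, spread model, pairing, slide, single arrays and the FDR limit.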

Additional observations from a re-analysis of the deposited data

How the results depend on the processing

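With limma, 3 Serpina3 genes and 1817 genes in all were called. The counts were 5 and 2989 with a background offset of 16, 6 and 4582 with an offset of 50, 6 and 4027 without background correction, 5 and 4372 with the quantile-normalized processed signal, and 5 and 7130 with an intensity trend in eBayes. With only probes kept that were well above background on both arrays of an age, fewer genes were tested. Then 4 of 5 Serpina3 genes and 7151 of 29495 in all were called. Serpina3c and the Serpina3i probe with the larger difference were kept through the aged arrays alone. The other Serpina3i probe was left out, so nothing is read from that count. At an FDR under 0.05 limma called 0 Serpina3 genes and 0 in all, against 5990 genes at an unadjusted P under 0.05, and the smallest FDR was 0.0945. Leaving out each array in turn, the counts were 0 to 0 for both. With the replicate number as a block, 0 Serpina3 genes and 0 in all were called. The arrays numbered 1 share a slide and those numbered 2 lie on different slides. Median local background was 67 and 63 on the arrays numbered 1, and 32 and 39 on those numbered 2. The deviations of same-numbered arrays from their group means correlated at -0.078. The block leaves each log2 difference unchanged and takes up residual degrees of freedom, so its counts do not measure the size of the differences. The remaining settings kept both counts within 1.5 times. The cause of these shifts was not tested.

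Of 117 log2 differences of members under alternatives, 115 were above 0. The exceptions were both Serpina3m, at -0.01 without young adult replicate 2 and -0.06 on the shared slide. The members were listed for this direction, and some settings, such as the intensity trend and the block, leave a fitted difference unchanged. Nothing is therefore read from the count of 115. Of 408 counts of called genes in the lists, 201 stayed within 1.5 times, 119 were lower and 88 higher, so the lists' counts depend on the setting as the total does. The slide as a random block could not be fitted, since its correlation was estimated for 0 genes. The global alignment gave 229 identical bases between the windows of Serpina3n and Serpina3c and 172 between those of Serpina3n and Serpina3b.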

Other observations

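Young adult array 2 gave a level at least 2-fold below each of the other 3 arrays for only 4 of the 25513 genes or identifiers with a mean intensity of at least 100. They were Serpina3m, Rdm1, Olfr1318 and an unnamed interval probe. Rdm1, a gene of the RAD52 motif family, was the nearest of all profiles to that of Serpina3m, with normalized intensities of 1861 and 343.3 in young adult mice and 1917 and 1907 in aged mice. These genes were picked after their values were seen, and why they stand apart on that array was not tested.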
